A study of Mus musculus with 16 samples.

Results

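The Ms4a genes encode small proteins that cross the cell membrane several times, and 6 of them are described here: Ms4a3, Ms4a4c, Ms4a6b, Ms4a6c, Ms4a6d and Ms4a7. They were taken by name, as the probe set carrying only that gene's symbol and, where several exist, the brightest by its mean over the 16 arrays. Each of the 6 had 1 such probe set. They are 6 of the 20 Ms4a genes, and of the 22180 genes, that the table measures with a single symbol. The samples are progenitor cells sorted from the bone marrow of wild-type C57BL/6 mice. The antibiotic groups came from mice that drank a mixture of vancomycin, neomycin, metronidazole and ampicillin (each at 1 g/L) for 3 weeks, and the control groups from mice on control water. Both waters held 2% sucrose. All sorted cells were Kit-positive and negative for CD105 and for a lineage panel that held Sca-1. Common myeloid progenitors (CMPs) had intermediate CD16/32 and granulocyte-monocyte progenitors (GMPs) high CD16/32, both without CD115, whereas committed monocyte progenitors (cMoPs) carried CD115 and Ly6C. There were 3 antibiotic and 3 control arrays of CMPs, 3 antibiotic and 2 control arrays of GMPs, and 3 antibiotic and 2 control arrays of cMoPs. The labels do not say whether an array held 1 mouse or a pool, nor whether progenitors were sorted from the same mice, so every p-value measures the spread between these arrays, whose number limits the precision.

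The family is named for its membrane-spanning domains and includes CD20 of B cells (Ms4a1) and the beta chain of the high-affinity IgE receptor of mast cells and basophils (Ms4a2). Many other members are orphan membrane proteins whose ligands are poorly known, and several sit beside immune receptors and tune their signals. In the mouse, Ms4a3 is a marker of cells that have passed through the GMP stage and is used to trace their progeny, whereas Ms4a7 is a marker of tissue macrophages.

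Values are log2 signals of a probe set, so a difference of 1 is a doubling. They have no detection calls. The median gene had a mean of 4.42, and the lower quartile of the arrays lay between 2.89 and 2.99. Differences are taken between samples for the same gene, since probes differ in brightness. Where a gene is set against the median gene or called bright or dim, only the signal of its probe set is described. The sort used proteins, and 7 of 8 genes listed for its gate were measured. Csf1r, which encodes CD115, averaged 9.29 and 9.39 in cMoPs (antibiotic and control) and at most 7.61 in the other groups. Fcgr3, which encodes CD16, averaged 9.81 in both GMP groups and 6.65 and 6.68 in CMPs. Fcgr2b, which encodes CD32, averaged 7.15 and 7.19 in GMPs and 4.99 and 5.18 in CMPs (antibiotic and control). Kit averaged between 9.32 and 10.56 in all groups. Transcripts of Eng and Ly6c2 are given beside the gate, which excluded CD105 in all groups and is stated for Ly6C only in cMoPs. Eng, which encodes CD105, averaged 8.17 and 8.50 in CMPs and between 6.41 and 7.22 elsewhere, above the median gene although the cells were sorted as CD105-negative. Ly6c2, a gene of Ly6C, did not separate cMoPs (12.72 and 12.67) from GMPs (12.59 and 12.52; log2 difference 0.14, adjusted p = 0.817). Gata1, the erythroid and megakaryocyte factor, averaged 8.30 and 8.08 in CMPs and no more than 5.22 elsewhere.

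Ms4a3 was lowest in CMPs and bright in both later progenitors, with its peak in GMPs. The CMP arrays held 7.86, 8.19 and 8.98 after antibiotics and 8.47, 8.0 and 9.40 in controls. The GMP arrays held 11.56, 11.64 and 11.74 after antibiotics and 11.55 and 11.62 in controls. The cMoP arrays held 10.99, 11.18 and 11.22 after antibiotics and 10.82 and 11.09 in controls. All GMP arrays lay above all cMoP arrays, and all cMoP arrays lay above all CMP arrays. Ms4a3 rose 8.77-fold in GMPs relative to CMPs (log2 difference 3.13 ± 0.22 SE, adjusted p = 3.56e-08), which made it number 55 of 22180 genes by size of difference. It rose 5.89-fold in cMoPs relative to CMPs (2.56 ± 0.22, adjusted p = 3.01e-07). Each adjusted p here is a Benjamini-Hochberg value over all genes from limma, two-sided, and progenitors were called different at an adjusted p under 0.05. The arrays measure sorted populations in bulk, so more cells with the transcript and more transcript per cell cannot be told apart.

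Between cMoPs and GMPs, Ms4a3 differed by -0.57 ± 0.23 and was not called (adjusted p = 0.218), although the ranges were apart, at 10.82 to 11.22 in 5 cMoP arrays and 11.55 to 11.74 in 5 GMP arrays. That fit shares 1 estimate of spread over all 16 arrays, and the SD of Ms4a3 was 0.16 over the cMoP arrays, 0.08 over the GMP arrays and 0.60 over the 6 CMP arrays. When only the GMP and cMoP arrays were fitted, the same difference had an adjusted p of 0.00658. The difference lay between -0.64 and -0.51 in the 27 alternatives run. It was called in 1 of these, the fit of GMP and cMoP arrays only.

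The window around the annotated start of Ms4a3 is shown because this gene had the largest GMP-to-CMP difference of the 6. It is chr19:11640802-11641101 of GRCm38.p6, minus strand, and runs from 250 bases before to 50 bases after the start, as do the others below. Sequences are from RefSeq, which held windows for 5 of the 6 genes, all but Ms4a6d. Capitals mark matches, on either strand, to GAGGAA, the core bound by the myeloid factor PU.1, to TTGCNNAA, a core bound by C/EBP factors, or to GAAANNGAA, a core bound by interferon regulatory factors and STAT complexes. Here GAGGAA begins at position 36 after the start and TTGCACAA follows directly at 42, without overlap.
Ms4a3: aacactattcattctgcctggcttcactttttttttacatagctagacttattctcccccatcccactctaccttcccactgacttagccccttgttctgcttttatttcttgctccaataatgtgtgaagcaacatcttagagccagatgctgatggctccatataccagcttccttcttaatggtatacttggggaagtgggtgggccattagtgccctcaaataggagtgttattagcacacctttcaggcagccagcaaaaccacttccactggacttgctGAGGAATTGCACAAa
Of the 32851 annotated windows, 28.3% hold GAGGAA, 10.8% hold TTGCNNAA and 8.56% hold GAAANNGAA. A match is a description of the letters and not evidence of binding.

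**Figure D1:**
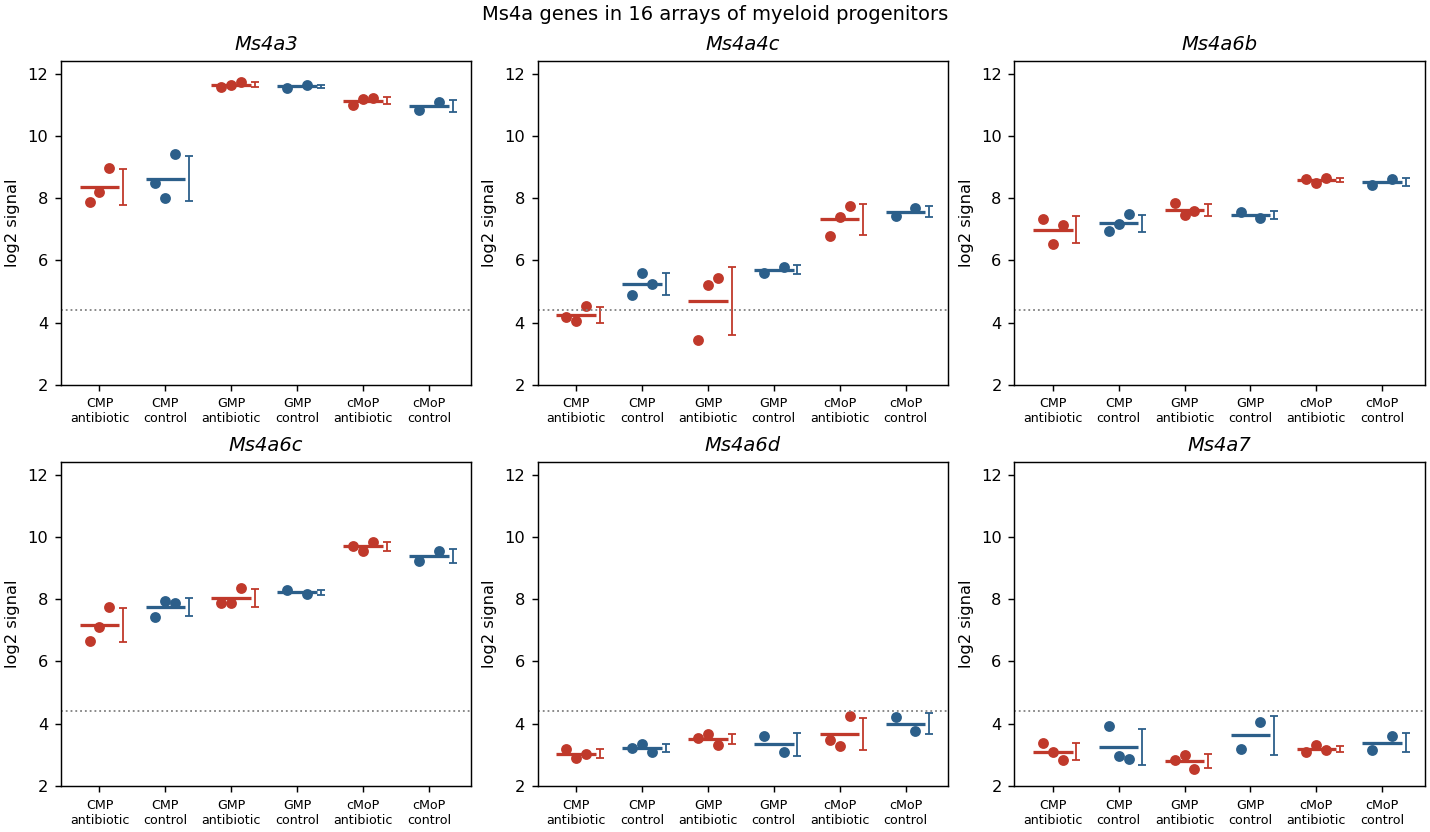
Log2 signal of the 6 Ms4a genes in each of the 16 arrays (points), with the group mean (horizontal bar) and SD (error bar) for antibiotic and control water in CMPs, GMPs and cMoPs. The dotted line is the mean of the median gene, 4.42. Ms4a3 is high in GMPs and cMoPs, Ms4a4c, Ms4a6b and Ms4a6c are brightest in cMoPs, and Ms4a6d and Ms4a7 stay below the dotted line.

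Ms4a6c, Ms4a6b and Ms4a4c were brightest in cMoPs. In CMPs, Ms4a6c held 6.65, 7.11 and 7.74 after antibiotics and 7.43, 7.93 and 7.89 in controls. In GMPs it held 7.89, 7.87 and 8.36 after antibiotics and 8.28 and 8.17 in controls. In cMoPs it held 9.72, 9.55 and 9.82 after antibiotics and 9.22 and 9.55 in controls. The cMoP arrays were apart from all others, whereas GMP and CMP arrays overlapped. Ms4a6c rose 2.65-fold in cMoPs relative to GMPs (1.41 ± 0.18, adjusted p = 0.000108), 4.24-fold in cMoPs relative to CMPs (2.08 ± 0.17, adjusted p = 1.99e-07) and 1.6-fold in GMPs relative to CMPs (0.67 ± 0.17, adjusted p = 0.0124). The call between GMPs and CMPs was lost without GMP control 1 (0.65, adjusted p = 0.0536) and in control arrays alone (0.47, adjusted p = 0.34).

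Ms4a6b, which has been studied in mouse T cells, followed the same order with smaller differences. In CMPs it held 7.33, 6.51 and 7.12 after antibiotics and 6.93, 7.17 and 7.48 in controls. In GMPs it held 7.84, 7.45 and 7.57 after antibiotics and 7.54 and 7.37 in controls. In cMoPs it held 8.60, 8.50 and 8.64 after antibiotics and 8.43 and 8.60 in controls. The cMoP arrays again stood above all others, and the GMP and CMP arrays overlapped. Ms4a6b rose 2.01-fold in cMoPs relative to GMPs (1.01 ± 0.15, adjusted p = 0.000467) and 2.75-fold relative to CMPs (1.46 ± 0.14, adjusted p = 1.42e-06). Its difference between GMPs and CMPs, 0.45 ± 0.14, was called narrowly (adjusted p = 0.0454). It missed the threshold in 17 of 27 alternatives and was 0.26 in control arrays alone. Over all 27 alternatives, adjusted p ranged from 0.0172 to 0.574. Leaving out 1 array ended the call for 13 of the 16, all but CMP antibiotic 1, GMP antibiotic 2 and CMP control 3, and adjusted p was highest without GMP control 1 (0.41, adjusted p = 0.155).

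Ms4a4c, which is induced by interferon in mouse cells, differed most of these 3 between cMoPs and the other progenitors, and it varied most within a group. In CMPs it held 4.17, 4.05 and 4.52 after antibiotics and 4.89, 5.6 and 5.25 in controls. In GMPs it held 3.44, 5.20 and 5.44 after antibiotics and 5.6 and 5.80 in controls. In cMoPs it held 6.79, 7.40 and 7.76 after antibiotics and 7.44 and 7.68 in controls. Every cMoP array was above every other array, and GMP antibiotic 1 was the dimmest of the 16. Ms4a4c rose 4.73-fold in cMoPs relative to GMPs (2.24 ± 0.31, adjusted p = 2e-04), number 32 of all genes by size, and 6.46-fold relative to CMPs (2.69 ± 0.29, adjusted p = 4.13e-06). Between GMPs and CMPs it differed by 0.45 ± 0.29 (adjusted p = 0.372). Without GMP antibiotic 1 that difference was 0.76 and was called (adjusted p = 0.00958).

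The windows of these 3 genes, all on the plus strand of GRCm38.p6, are shown because the genes rose together in cMoPs. They lie at chr19:11469118-11469417, chr19:11518309-11518608 and chr19:11407411-11407710.
Ms4a6c: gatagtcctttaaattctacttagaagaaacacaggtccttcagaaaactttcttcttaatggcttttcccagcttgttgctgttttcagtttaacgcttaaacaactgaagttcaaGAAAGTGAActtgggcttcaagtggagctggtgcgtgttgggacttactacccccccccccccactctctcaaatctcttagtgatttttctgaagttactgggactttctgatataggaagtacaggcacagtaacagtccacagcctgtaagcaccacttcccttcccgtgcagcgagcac
Ms4a6b: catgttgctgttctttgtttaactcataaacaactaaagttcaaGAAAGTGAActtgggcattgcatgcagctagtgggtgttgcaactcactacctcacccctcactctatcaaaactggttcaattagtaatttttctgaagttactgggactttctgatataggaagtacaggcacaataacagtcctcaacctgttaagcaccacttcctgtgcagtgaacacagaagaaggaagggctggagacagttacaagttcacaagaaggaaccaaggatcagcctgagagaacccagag
Ms4a4c: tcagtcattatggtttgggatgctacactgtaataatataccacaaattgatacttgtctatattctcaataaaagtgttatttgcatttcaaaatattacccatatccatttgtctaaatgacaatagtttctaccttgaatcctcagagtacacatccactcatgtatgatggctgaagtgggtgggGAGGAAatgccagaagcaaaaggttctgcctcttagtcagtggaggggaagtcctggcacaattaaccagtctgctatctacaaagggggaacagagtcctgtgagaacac
The windows of Ms4a6c and Ms4a6b each hold GAAAGTGAA, beginning at positions -133 and -206 from the start, whereas that of Ms4a4c holds GAGGAA at -61. Such matches are not particular to the genes that rose. Ms4a7, not called between progenitors, has 2 windows, which match GAAANNGAA at -71 and at -148, and the first also holds GAGGAA at 44. Ms4a6c and Ms4a6b also share an unbroken run of 48 bases, which lies from -49 to -2 in Ms4a6c and from -118 to -71 in Ms4a6b.
shared run: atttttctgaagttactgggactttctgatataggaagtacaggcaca
No other pair among the 18 Ms4a genes with a window shared a run over 20 bases. That 20-base run belonged to Ms4a4c and Ms4a4b, whose windows were 73.3% identical when aligned end to end. Whether the array's probes tell such similar genes apart was not tested.

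Ms4a6d and Ms4a7 were dim in all 6 groups. Ms4a6d, a macrophage gene in the mouse, lay between 2.90 and 3.34 in 6 CMP arrays, between 3.08 and 3.66 in 5 GMP arrays and between 3.28 and 4.26 in 5 cMoP arrays. Its mean over the arrays was above that of 31.1% of genes. It rose 1.63-fold in cMoPs relative to CMPs (0.70 ± 0.17, adjusted p = 0.00596), but its cMoP and CMP arrays overlapped, and its differences between cMoPs and GMPs (0.41 ± 0.17, adjusted p = 0.253) and between GMPs and CMPs (0.29 ± 0.17, adjusted p = 0.291) were not called. The cMoP-to-CMP difference was 0.63 (adjusted p = 0.076) in antibiotic arrays alone and 0.77 (adjusted p = 0.0608) in control arrays alone. Ms4a7 lay between 2.83 and 3.91 in CMPs, between 2.55 and 4.07 in GMPs and between 3.10 and 3.61 in cMoPs. It differed by 0.12 ± 0.20 between cMoPs and CMPs (95% interval -0.31 to 0.54, adjusted p = 0.763). The table cannot show whether so dim a probe set exceeds background.

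**Figure D2:**
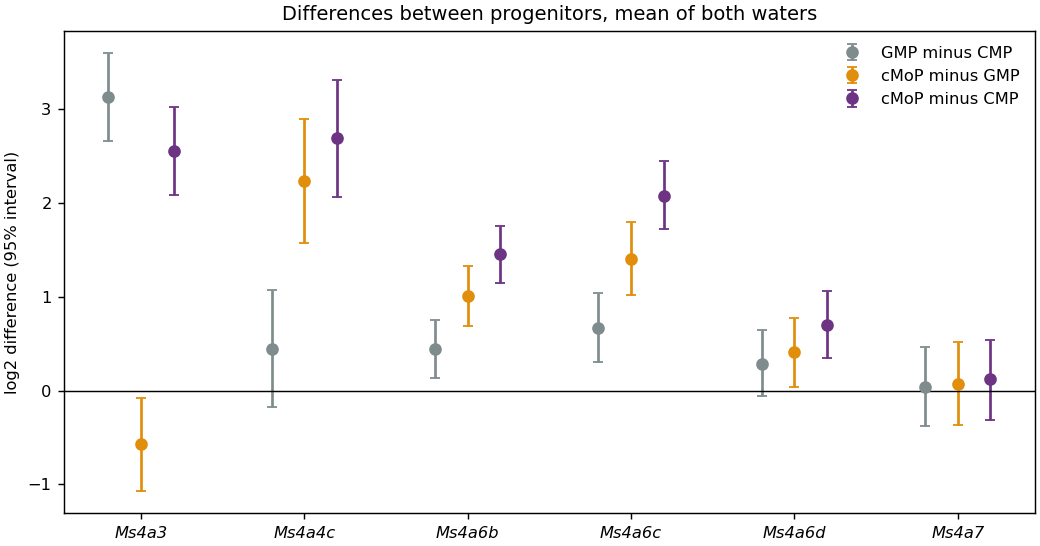
Log2 differences between progenitors for the 6 Ms4a genes, as the mean of both waters, with 95% intervals from limma. Ms4a3 has its main step between GMPs and CMPs (3.13), Ms4a4c between cMoPs and GMPs (2.24), and Ms4a7 differs by no more than 0.12 in any of them.

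The 6 genes were chosen with earlier results of these data known, so their counts beside all genes are a description. Counted together, 3 of the 6 genes were called between GMPs and CMPs, all 3 higher, where 16% of all genes were called and 7.87% were higher. Between cMoPs and GMPs, 3 of 6 were called, all higher, against 5.42% of all genes called and 2.6% higher. Between cMoPs and CMPs, 5 of 6 were called, all higher, against 18.9% called and 9.72% higher. The median difference of the 6 was 0.45, 0.71 and 1.77 in the same order, beside 0.02, 0.01 and 0.04 for all genes. The first step called Ms4a3, Ms4a6b and Ms4a6c, and the second Ms4a4c, Ms4a6b and Ms4a6c.

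A contrast chosen after these values were seen compared the step between cMoPs and GMPs with the step between GMPs and CMPs, for which 8.25% of all genes were called. For Ms4a3 the later step was smaller by 3.71 ± 0.39 (-3.71, adjusted p = 1.05e-05), and it was called with each of the 16 arrays left out. For Ms4a4c the later step was larger by 1.79 ± 0.53 (adjusted p = 0.0469). With each of the 16 arrays left out it ranged from 1.17 to 2.17, and the call was lost in 11 fits. It was kept without cMoP antibiotic 1, CMP control 1 or any 1 of the GMP antibiotic arrays, and the contrast was lowest, 1.17, without GMP antibiotic 1. Adjusted p was highest without GMP control 1 (0.174). For Ms4a6c (0.73 ± 0.31, adjusted p = 0.197) and Ms4a6b (0.56 ± 0.26, adjusted p = 0.246) the contrast was not called.

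Ordered by mean, the 6 groups fell into progenitor blocks for Ms4a3, Ms4a6b, Ms4a6c and Ms4a6d, with the waters of a progenitor next to each other, but not for Ms4a4c or Ms4a7. For Ms4a3 the order was antibiotic GMPs (11.65), control GMPs (11.59), antibiotic cMoPs (11.13), control cMoPs (10.96), control CMPs (8.62) and antibiotic CMPs (8.34), and the array ranges of neighbours were apart only between GMPs and cMoPs and between cMoPs and CMPs. For Ms4a6c, antibiotic cMoPs (9.70) and control cMoPs (9.39) came first, followed by control GMPs (8.22), antibiotic GMPs (8.04), control CMPs (7.75) and antibiotic CMPs (7.17). For Ms4a6b the means were 8.58 and 8.52 in cMoPs, 7.62 and 7.46 in GMPs and 6.99 and 7.19 in CMPs, each pair antibiotic and control. For both genes the 1 pair of neighbours that was apart was the pair between cMoPs and GMPs. The order of Ms4a4c mixed the progenitors: control cMoPs (7.56), antibiotic cMoPs (7.32), control GMPs (5.70), control CMPs (5.25), antibiotic GMPs (4.69) and antibiotic CMPs (4.25). Only antibiotic cMoPs and control GMPs were apart in it. For Ms4a6d, from 4.0 in control cMoPs to 3.04 in antibiotic CMPs, and for Ms4a7, from 3.63 in control GMPs to 2.80 in antibiotic GMPs, every pair of neighbours overlapped.

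Likeness to other genes was measured as the root-mean-square difference between mean-centred log2 profiles over the 16 arrays, among 11082 genes brighter than the median gene and outside the family. The arrays share progenitors and waters, so it is a description. The genes nearest to Ms4a3 were Gda, a guanine deaminase, Igsf6, an immunoglobulin superfamily gene, and Fcgr3, each at 0.22. Nearest to Ms4a4c were Pld4, an exonuclease of endolysosomes (0.43), Ly86, the partner protein of the Toll-like receptor homologue RP105 (0.45), and Csf1r (0.50). Nearest to Ms4a6b were Anxa6 (0.20) and Anxa2 (0.21), calcium-dependent membrane-binding annexins, and the lysosomal glycoprotein gene Cd68 (0.21). Nearest to Ms4a6c were the glutamate receptor subunit gene Gria3 and the kinase gene Bmx, at 0.29 each, and the protease gene Ctsc (0.31). CD16/32 and CD115, the proteins of Fcgr3 and Csf1r, defined the sort. Within the family, Ms4a6b and Ms4a6c differed by 0.44, Ms4a4c and Ms4a6c by 0.62 and Ms4a4c and Ms4a6b by 0.88. Ms4a3 differed by 1.11 from Ms4a6c, 1.16 from Ms4a6b and 1.46 from Ms4a4c. The measure also follows the size of a change: Ms4a6b differed by 0.46 from the dim Ms4a6d and by 0.75 from Ms4a7, less than from Ms4a4c. Ms4a6d and Ms4a7, whose group means had SDs of 0.34 and 0.28, were not matched to genes outside the family.

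Genes of granulocyte and of monocyte commitment give the surroundings of these patterns. Both lists were chosen with earlier results of these data known, so they are a description. Among all genes, 16% were called between GMPs and CMPs (7.87% higher) and 5.42% between cMoPs and GMPs (2.6% higher). Between cMoPs and CMPs, 18.9% of all genes were called (9.72% higher). Of 17 granulocyte genes, 12 rose and 3 fell in GMPs relative to CMPs (median 1.31), and 0 rose and 7 fell in cMoPs relative to GMPs (median -0.27). In cMoPs relative to CMPs, 10 rose and 5 fell (median 0.77). Cebpe, a factor of granulocyte maturation, rose by 3.85 in the first step and fell by 2.29 in the second. Fcnb, ficolin B, rose by 3.30 and fell by 1.46. Gfi1, a repressor that favours granulocytes, rose by 2.38 and fell by 1.52, and Cd63, a granule membrane protein, rose by 1.35 and fell by 1.48. Elane, neutrophil elastase, rose by 2.72 in the first step and differed by -0.27 ± 0.20 in the second (adjusted p = 0.602). Prtn3, another granule protease, rose by 1.82 and differed by -0.12 ± 0.14 (adjusted p = 0.787). Ms4a3, with 3.13 and -0.57, likewise had a called first step and an uncalled second in this fit. Its GMP and cMoP arrays were apart, however, and its fall was called by limma with only those arrays fitted (adjusted p = 0.00658). That was the 1 call of this fall among 27 alternatives. Of 18 monocyte genes, 9 rose and 2 fell in GMPs relative to CMPs (median 0.51), and 16 rose and 0 fell in cMoPs relative to GMPs (median 1.60). In cMoPs relative to CMPs, 17 rose and 0 fell (median 1.88). Klf4, a factor of monocyte development, rose by 0.70 and 2.65 in the successive steps, F13a1, a clotting factor subunit, by 1.90 and 1.54, Cybb, the NADPH oxidase subunit, by 1.69 and 1.17, and Tgfbi, a matrix protein, by 0.88 and 1.74. Ctss, cathepsin S, fell by 0.55 in the first step and rose by 2.37 in the second, and S100a4, a calcium-binding protein, fell by 0.39 and rose by 2.22. Ly86 rose by 2.01 in the second step and differed by 0.55 ± 0.20 in the first (adjusted p = 0.0825). Cd14, the endotoxin co-receptor, rose by 0.85 in the first step and differed by 0.24 ± 0.25 in the second (adjusted p = 0.755).

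**Figure D3:**
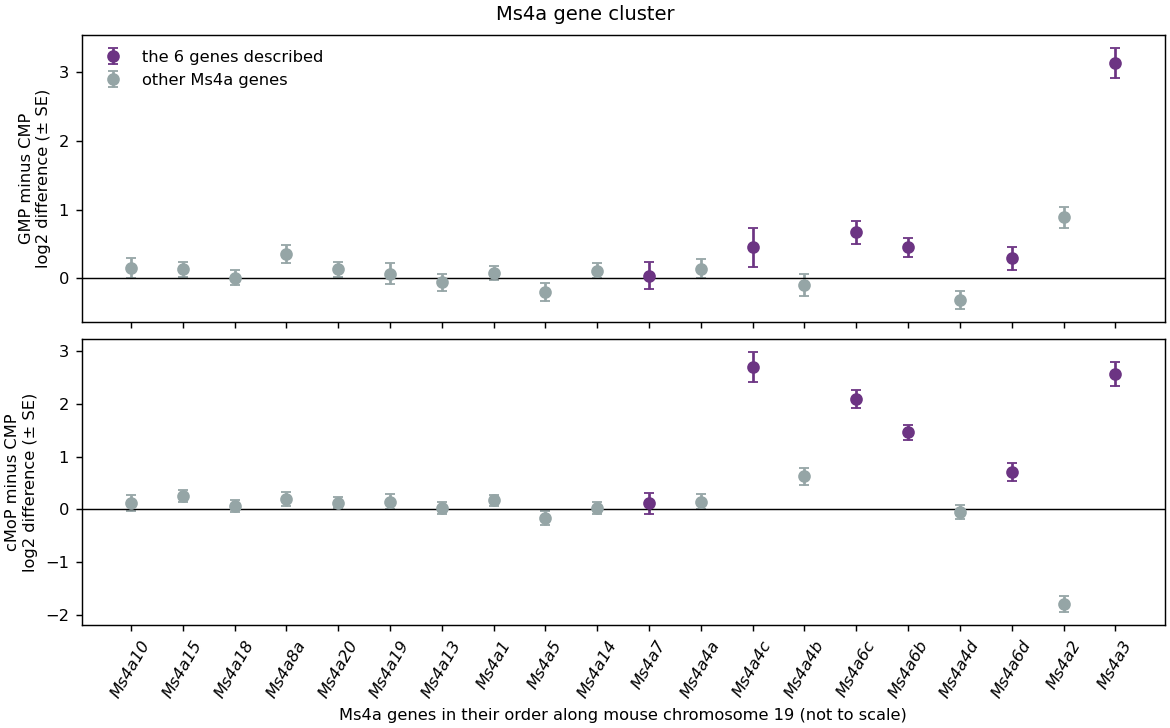
Log2 differences (± SE) of the 20 measured Ms4a genes between GMPs and CMPs (top) and between cMoPs and CMPs (bottom), in their order along mouse chromosome 19, not to scale. The larger differences lie from Ms4a4c to Ms4a3 at the right, with Ms4a4d near 0 (-0.05) and Ms4a2 at -1.79 among them in the lower panel.

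All 20 genes lie on chromosome 19 in the RefSeq annotation of GRCm38.p6. From Ms4a4c to the last gene the order is Ms4a4c, Ms4a4b, Ms4a6c, Ms4a6b, Ms4a4d, Ms4a6d, Ms4a2 and Ms4a3. All 7 family genes called between cMoPs and CMPs lie in this stretch, of which Ms4a4d was the 1 gene not called. The 12 genes before it, from Ms4a10 to Ms4a4a and including Ms4a7, held no call in any of the 3 comparisons between progenitors. The stretch was drawn to begin at the first called gene, so this division follows from the calls. Of the genes before it, only Ms4a15 had a group mean above the median gene (at most 4.56), so position and dim signal cannot be told apart. Of the 14 family genes not among the 6, 1 was called between GMPs and CMPs, 2 between cMoPs and GMPs and 2 between cMoPs and CMPs. The shares of all genes called were 16%, 5.42% and 18.9% in the same order. Ms4a2 averaged 6.24 and 5.82 in CMPs, 6.80 and 7.04 in GMPs and 4.38 and 4.09 in cMoPs (antibiotic and control). It rose in GMPs relative to CMPs (0.89 ± 0.15, adjusted p = 0.000418) and fell in cMoPs relative to GMPs (-2.68 ± 0.16, adjusted p = 6.17e-08) and relative to CMPs (-1.79 ± 0.15, adjusted p = 2.04e-07). By size, its difference between cMoPs and GMPs was number 13 of all genes.

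Ms4a4b rose in cMoPs relative to GMPs (0.73 ± 0.17, adjusted p = 0.0153) and relative to CMPs (0.63 ± 0.16, adjusted p = 0.00948), with group means between 2.42 and 3.42. These lie around the lower quartile of the arrays (2.89 to 2.99), and whether so dim a probe set exceeds background cannot be shown. Ms4a4d, with group means of 4.43 to 4.87, and Ms4a15, with 4.24 to 4.56, were not called. The remaining 10 genes, Ms4a1 among them, had group means below the median gene. The related genes Tmem176a and Tmem176b, which lie on another chromosome, were bright. Tmem176b fell in GMPs (-0.43 ± 0.13, adjusted p = 0.0375) and in cMoPs (-0.57 ± 0.13, adjusted p = 0.00624) relative to CMPs, and Tmem176a was not called.

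Markers of other cells also differed between these progenitors. Their lists, too, were chosen with earlier results of these data known. Among all genes, 7.87% were higher in GMPs relative to CMPs, and 625 of 22180 were lower in cMoPs relative to GMPs. Between cMoPs and CMPs, 18.9% of all genes were called. The 8 mast cell and basophil markers, Ms4a2 among them, had mean log2 signals of 5.98 and 5.73 in CMPs, 6.87 and 6.91 in GMPs and 5.15 and 5.02 in cMoPs (antibiotic and control), with 5 of 8 higher in GMPs relative to CMPs and 6 of 8 lower in cMoPs relative to GMPs. The 6 measured eosinophil markers had 4.59 and 4.81, 6.86 and 6.64, and 4.11 and 4.37 in the same order, with 5 of 6 higher in GMPs relative to CMPs and 5 of 6 lower in cMoPs relative to GMPs. Both lists rose with Ms4a3 from CMPs to GMPs, and their part in that step was not tested. In cMoPs relative to CMPs, 1 mast cell and basophil marker rose and 2 fell, and 0 eosinophil markers rose and 2 fell. Ms4a3 was higher in cMoPs than in CMPs (2.56). The 8 markers of mature macrophages had group means of 4.43 to 4.97 as a list, but single markers moved. Vcam1, an adhesion molecule, rose by 2.47 in GMPs relative to CMPs and fell by 2.69 in cMoPs relative to GMPs. Adgre1, a surface receptor of macrophages, rose by 1.59 and 0.79 in these steps and by 2.38 in cMoPs relative to CMPs, with group means from 3.30 in antibiotic CMPs to 5.88 in antibiotic cMoPs, and C1qb, a complement subunit, fell by 0.69 in cMoPs relative to CMPs. The other 5 were not called. The 7 measured B lineage markers had group means of 4.45 to 4.69 as a list, in which Cd79b, a subunit of the B cell receptor, was bright (7.59 to 8.55) and rose by 0.80 in GMPs and 0.83 in cMoPs relative to CMPs. Cd79a, the partner subunit (-0.80), and Vpreb1, of the surrogate light chain (-0.52), fell in cMoPs relative to CMPs. Adgre1 and Cd79b moved in the direction of the called Ms4a genes, and their part in those results was not tested.

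None of the 6 genes passed the threshold between antibiotic and control water, though the means of Ms4a4c and Ms4a7 were lower after antibiotics in each progenitor. By limma, 0 of the 6 genes were called at the study's adjusted p under 0.2 in CMPs (0.0406% of all genes called), GMPs (0.0721%), cMoPs (0.131%) or for the mean of the 3 progenitors (0.514%). At an unadjusted p under 0.05 there were 2 in CMPs (7.24% of all genes), 2 in GMPs (7.49%), 0 in cMoPs (6.2%) and 2 for the mean (9.54%). The methods' 2-way analysis of variance, without moderation, also called 0 in each.

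Ms4a4c differed by -1.0 ± 0.39 in CMPs (95% interval -1.83 to -0.17, adjusted p = 0.608), by -1.01 ± 0.44 in GMPs (-1.94 to -0.08, adjusted p = 0.631) and by -0.24 ± 0.44 in cMoPs (-1.17 to 0.69, adjusted p = 0.976). All antibiotic arrays were dimmer than all control arrays in CMPs, as for 6.36% of all genes, and in GMPs, as for 12.6% (there also for Ms4a7). In cMoPs, where this held for 11.4% of genes, the arrays of Ms4a4c overlapped. The GMP difference was -0.38 without GMP antibiotic 1 and the mean over the progenitors was -0.54 without it, against -0.75 ± 0.24 with all arrays (adjusted p = 0.323). With the replicate number as a fixed term the mean was -0.87 and was called (adjusted p = 0.145), but the numbers do not mark shared mice in the labels.

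Ms4a6c differed by -0.58 ± 0.23 in CMPs (adjusted p = 0.616), -0.18 ± 0.26 in GMPs (adjusted p = 0.922) and 0.31 ± 0.26 in cMoPs (adjusted p = 0.917). Ms4a7 differed by -0.83 ± 0.30 in GMPs (adjusted p = 0.539), with 2.84, 3.01 and 2.55 after antibiotics against 3.19 and 4.07 in controls, at levels near the lower quartile. Ms4a3 differed by -0.28 ± 0.29, 0.06 ± 0.33 and 0.18 ± 0.33 in CMPs, GMPs and cMoPs, and Ms4a6b by -0.21 ± 0.19, 0.17 ± 0.21 and 0.07 ± 0.21. The 95% intervals of Ms4a3 were -0.90 to 0.34 in CMPs, -0.64 to 0.76 in GMPs and -0.52 to 0.87 in cMoPs. Ms4a6d differed by -0.18 ± 0.22, 0.16 ± 0.25 and -0.32 ± 0.25 in the same order.

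**Figure D4:**
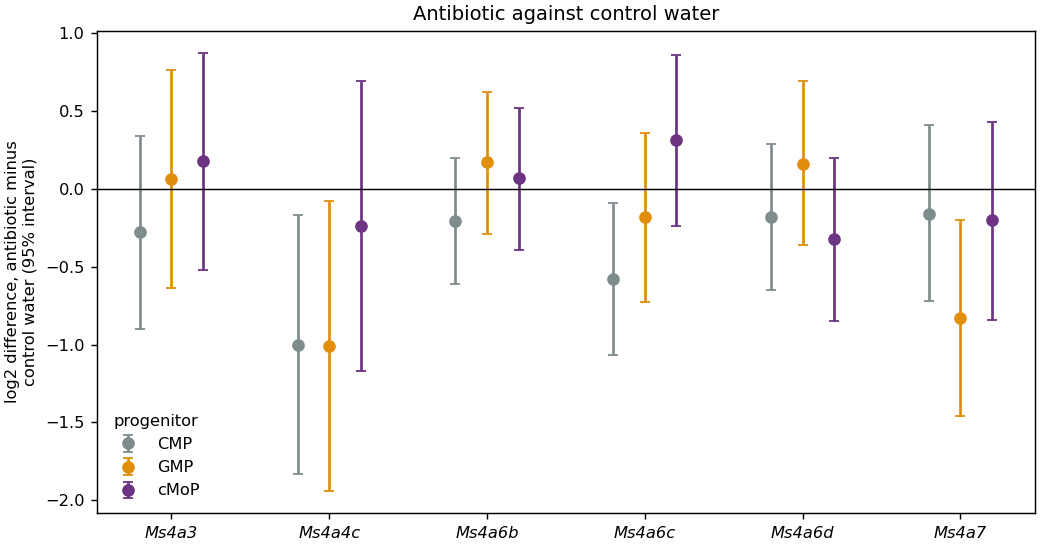
Log2 difference between antibiotic and control water for the 6 Ms4a genes in CMPs, GMPs and cMoPs, with 95% intervals from limma. The intervals of Ms4a4c in CMPs (-1.83 to -0.17) and GMPs (-1.94 to -0.08) and of Ms4a7 in GMPs lie below 0 before adjustment over all genes, and no difference was called.

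Whether the effect of water differed between progenitors was tested by an F test, which called 0 of the 6 genes and 0.00451% of all genes at an adjusted p under 0.2. At an unadjusted p under 0.05 it held 0 of the 6 and 5.79% of all genes, and the unmoderated analysis of variance called 0. Its adjusted p was between 0.872 (Ms4a6c) and 0.973 (Ms4a3). For Ms4a6c the effect in cMoPs minus that in CMPs was 0.90 ± 0.35 (adjusted p = 0.804). Among the 18 monocyte genes, 2 fell after antibiotics in CMPs, F13a1 (-1.15 ± 0.17, adjusted p = 0.0301) and Tgfbi (-1.08 ± 0.17, adjusted p = 0.0685), 0 in GMPs and 0 in cMoPs. Among all genes, 0.0406% were called for water in CMPs, 0.131% in cMoPs and 0.514% for the mean of the 3 progenitors. The monocyte list had medians of -0.27, -0.30 and 0.17 in CMPs, GMPs and cMoPs, beside -0.01 for all genes in each. For the mean of the 3 progenitors, 4 of the 18 fell: the chemokine receptor genes Cx3cr1 (-0.49, adjusted p = 0.188) and Ccr2 (-0.47, adjusted p = 0.18), the perforin-like gene Mpeg1 (-0.47, adjusted p = 0.156) and F13a1 (-0.43, adjusted p = 0.183). Of the 17 granulocyte genes, Fcnb rose in cMoPs (1.17 ± 0.23, adjusted p = 0.14) and for the mean (0.62 ± 0.13, adjusted p = 0.119), and no other was called for water.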

How the data were processed

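RNA from 16 sorted samples (2.6 ng each) was amplified and hybridised to arrays with 1 colour, per the labels' protocols. The deposited values are log2 signals per probe set. The submitters' processing notes name Transcriptome Analysis Console and Partek; versions, summarisation and normalization were not given in the sources used here. Signals were used as deposited, since array medians lay between 4.04 and 4.17.

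Of 41345 probe sets, 23521 carried 1 gene symbol, and the brightest per gene left 22180 genes, with no filter on dim ones. A linear model over all genes (limma 3.58.1, R 4.3.3) had 6 group means, no block and moderated variances. Progenitors were compared with both waters weighted equally (adjusted p under 0.05), and waters as the design text states, with a 2-way layout and a false discovery rate under 0.2. The fit was tested on simulated data. Same-numbered arrays of a water did not deviate together (r = -0.05 to 0.10 over 15 pairs). In groups of 2 arrays the deviations mirror each other, so these pairs are not all separate checks. The labels do not say that a number marks a mouse, and the numbers were not used as pairs. Alternatives covered the variances, dim genes, probe sets, quantile normalization, an unmoderated analysis of variance, the replicate number, 1 water only, fewer arrays and each array left out. Windows were aligned with Biopython 1.88.

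The 6 genes and all lists were chosen with earlier results of these data known. Named were the 6 genes in every comparison, other family genes that were called or reached the level of the median gene, the 3 nearest genes for each of the 6 whose group means had an SD of at least 0.5, and the 4 largest called genes of each commitment list in each comparison. Marker genes of other cells were named after their values were seen.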

Additional observations from a re-analysis of the deposited data

How the results depend on the processing

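Over 1066 refits of the 42 differences of the 6 genes, 1040 kept their side of the threshold, 23 lost a call, 3 gained one and 0 called differences changed sign. With each array left out, 1 to 3 of the 6 genes were called between GMPs and CMPs (1 without GMP control 1), 3 to 3 between cMoPs and GMPs and 5 to 5 between cMoPs and CMPs; a lone array left in a group was assumed to vary like the other groups. With control arrays alone, 2 per group in GMPs and cMoPs, 1 was called between GMPs and CMPs and 1 between cMoPs and GMPs, where Ms4a4c had 1.86 (adjusted p = 0.0702) and Ms4a6c 1.16 (adjusted p = 0.0505); all genes called then numbered 1786, 385 and, between cMoPs and CMPs, 2271. A replicate block with the number as a fixed term called 1 of the 6, Ms4a4c, for water over the progenitors. It gave 16 genes in CMPs, 8 in cMoPs and 2 for the interaction, and a random replicate block changed no call of the 6.

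Calls over all genes for water were few and unstable. The 9 in CMPs became 61 with trend and robust variances, 35 with genes brighter than the median gene, 2 with every probe set, 15 with the unmoderated analysis of variance, 1 with CMP arrays alone and 2 to 39 with an array left out. The 16 in GMPs became 27 with trend and robust variances, 27 with brighter genes, 2 with the unmoderated analysis, 0 with GMP arrays alone and 2 to 42. The 29 in cMoPs became 9 with every probe set, 8 unmoderated, 2 with cMoP arrays alone and 3 to 226. The 114 for the mean became 350 with trend and robust variances, 353 with brighter genes, 59 with every probe set and 41 to 269 with an array left out. The 1 interaction became 9 with trend and robust variances, 3 with brighter genes, 2 with every probe set, 2 with quantile normalization, 2 unmoderated and 1 to 24. The cause was not tested, other than fewer arrays or other rows tested. None of these alternatives, the fixed replicate number excepted, called 1 of the 6 genes for water. Dim signal limits Ms4a6d and Ms4a7, and Ms4a4b among the other family genes.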
